A study of Mus musculus with 9 samples.

Results

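The regions described here are the 10 kb that follow the ends of protein-coding genes in mouse embryonic fibroblasts (MEFs), and the question was how often, where and at which genes nuclease-accessible chromatin lies there. Of 15105 protein-coding genes on chromosomes 1 to 19, X and Y, 6660 had a downstream region that no other gene of the RNA table overlapped and that had no gene start within 2 kb. Another gene lay over the region in 8015 cases, and only a nearby gene start removed a further 430. The members were chosen by position among the genes of the RNA table, and accessibility did not enter the choice. No member had a mean RNA level of 0, and only 4 of 15 listed genes of other cell types were in that table. Genes without RNA may thus be missing from it, both as members and as neighbours. Neighbouring genes that face each other can share bases, and 520 of the 6660 regions did so.

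When RNA polymerase II passes the poly(A) site of a gene, the transcript is cut and the polymerase continues into the DNA behind the gene before it is released. Such flanks can also hold enhancers, which are bound by transcription factors such as AP-1 (FOS and JUN dimers) and stand open in chromatin, and sites of CTCF, the factor that anchors chromatin loops. Fibroblasts are known for many enhancers bound by AP-1, and the distal control of Myc lies on both sides of that gene.

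Accessible chromatin was mapped by TACh-seq, in which the nuclease Cyanase cuts open chromatin and the released fragments are sequenced. The TACh-seq samples were primary MEFs, 2 labelled wild type (WT) and 2 labelled KOKD, in which Fubp1 is knocked out and Fubp2 (Khsrp) is knocked down. By the protocol, WT and Fubp1 knockout MEFs received 100 nM of Fubp2 or non-target siRNA for 48 h. The labels of all 4 samples name 1 read table, its own name reads as that of a single WT library, and none of its columns names a library, so which libraries it holds is not known and no comparison of WT with KOKD MEFs is made. RNA was measured in 4 libraries, 2 technical replicates each of low-MYC and high-MYC cells, which were primary MEFs from Myc-Egfp+/+ mice. Both groups had been treated with 20 µM of the proteasome inhibitor MG-132 for 6 h and were then sorted for low or high GFP. By the protocol, the sorted cells were seeded overnight before RNA was extracted. FUBP1 binding was mapped by ChIP-seq in 1 sample of primary MEFs at steady state, and the peaks analysed here all lie on chromosome 15. Sorting on a MYC-GFP fusion under proteasome inhibition, siRNA transfection and 1 ChIP-seq sample limit these groups as models of the unperturbed cell.

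The read table held 4881417 reads, all of them inside stretches of dense signal. Reads no more than 800 bp apart were joined into 25679 islands, the smallest of which held 42 reads. A region without reads is therefore a region without a called island and not one without any cut, and the depth outside islands is unknown. In the RNA libraries the summed level of 10 fibroblast markers was 334 and 339 in low-MYC and 802 and 818 in high-MYC cells in spike-in-normalized FPK (fragments per kilobase of transcript), so fibroblast markers were high in all 4. The summed level of 10 macrophage markers was lower, at 0.623 and 0.865 in low-MYC and 26.8 and 28.2 FPK in high-MYC cells, but differed more between the groups.

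The accessible sites that the results below turn on are shown first, a few of them in full, because the letters under them are what the motif counts refer to. Each is the 300 bp around the summit of an island, read 5′ to 3′ on the strand of the gene it follows, from mm10 (GRCm38). The site 8578 to 8877 bp past the end of Myc (chr15:61998952-61999251, plus strand), which encodes the transcription factor that set the RNA groups, and those of Has2 (chr15:56661358-56661657, minus strand) and Ext1 (chr15:53062797-53063096, minus strand), which encode enzymes of hyaluronan and heparan sulfate synthesis, belong to regions that also held a FUBP1 peak. Those of Vmp1 (chr11:86577253-86577552, minus strand), an autophagy gene, and Dusp10 (chr1:184076809-184077108, plus strand), a MAP kinase phosphatase, come from regions among the 10 with the most reads. The site of Scarb1 (chr5:125268410-125268709, minus strand), a lipoprotein receptor, had the most reads at a summit with a CTCF match. Capitals mark matches to 8 motifs searched on both strands, namely TGANTCA (AP-1), CACGTG (E-box), CCAAT (NF-Y), GGGCGG (SP/KLF), TGTGGT (RUNX), GGAATG (TEAD), CGGAAGT (ETS) and the CTCF consensus, and no matches overlapped in these windows.
Myc: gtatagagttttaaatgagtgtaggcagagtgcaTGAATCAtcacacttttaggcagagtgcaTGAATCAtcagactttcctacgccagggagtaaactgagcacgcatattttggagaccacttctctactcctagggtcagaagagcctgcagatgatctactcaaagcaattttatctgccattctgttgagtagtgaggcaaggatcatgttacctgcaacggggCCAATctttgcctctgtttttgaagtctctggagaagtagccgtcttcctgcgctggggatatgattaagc
Has2: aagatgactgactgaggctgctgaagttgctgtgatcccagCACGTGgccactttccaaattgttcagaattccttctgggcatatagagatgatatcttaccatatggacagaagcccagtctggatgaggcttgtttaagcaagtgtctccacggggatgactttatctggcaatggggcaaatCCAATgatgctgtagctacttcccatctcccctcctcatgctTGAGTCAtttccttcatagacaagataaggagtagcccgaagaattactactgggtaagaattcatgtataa
Ext1: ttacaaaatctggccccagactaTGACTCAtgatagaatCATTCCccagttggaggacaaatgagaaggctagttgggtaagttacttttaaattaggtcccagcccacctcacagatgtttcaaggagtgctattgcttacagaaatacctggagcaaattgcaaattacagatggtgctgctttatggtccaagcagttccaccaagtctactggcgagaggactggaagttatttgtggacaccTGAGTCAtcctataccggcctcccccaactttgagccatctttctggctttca
Vmp1: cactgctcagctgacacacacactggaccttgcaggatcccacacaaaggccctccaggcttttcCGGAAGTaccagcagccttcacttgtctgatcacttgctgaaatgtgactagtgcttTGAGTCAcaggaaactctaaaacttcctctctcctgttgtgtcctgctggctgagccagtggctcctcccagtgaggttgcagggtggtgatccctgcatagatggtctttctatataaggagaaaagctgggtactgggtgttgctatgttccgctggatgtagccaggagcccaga
Dusp10: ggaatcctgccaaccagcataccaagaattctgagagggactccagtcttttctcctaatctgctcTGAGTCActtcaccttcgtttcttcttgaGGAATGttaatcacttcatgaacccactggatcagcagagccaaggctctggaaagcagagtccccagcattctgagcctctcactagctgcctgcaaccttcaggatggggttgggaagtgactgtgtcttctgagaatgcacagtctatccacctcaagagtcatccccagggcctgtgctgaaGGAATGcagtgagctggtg
Scarb1: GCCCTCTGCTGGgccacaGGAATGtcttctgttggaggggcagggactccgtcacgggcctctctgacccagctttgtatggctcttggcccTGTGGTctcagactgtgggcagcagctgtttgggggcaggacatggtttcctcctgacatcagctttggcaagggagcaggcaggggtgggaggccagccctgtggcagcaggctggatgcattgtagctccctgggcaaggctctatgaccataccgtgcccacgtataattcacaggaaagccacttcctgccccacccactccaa

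Accessible chromatin behind gene ends was the exception. Reads were found in 779 of the 6660 regions, a share of 11.7% (10.9 to 12.5%, exact Clopper-Pearson 95% interval, which here and below covers counting error only). A region with reads held a median of 115 reads (quartiles 81.5 and 178), the highest value was 773, and 729 regions held at least 20. The median length covered by islands was 2175 bp of the 10 kb. The 6660 regions together held 2.24% of all reads.

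Read density in the downstream regions was far below that at gene starts and close to that of the whole genome. The regions held 1.67 reads per kb, against 1.84 over the whole genome and 83.2 in the 1 kb around the starts of the same genes. The whole-genome value includes gene starts, which the rule keeps at least 2 kb away from the regions, so it is not a like background. Flanks free to 20 kb held 1.58 reads per kb at 0 to 10 kb and 1.40 at 10 to 20 kb. Genes of at least 20 kb held 1.46 past the end and 1.24 in their last 10 kb. Of those starts 62.5% (61.3 to 63.7%) had reads. For the 5263 genes whose flank was free to 20 kb, 11.1% (10.3 to 12%) had reads at 0 to 10 kb and 10.4% (9.62 to 11.3%) at 10 to 20 kb. For the 4401 genes of at least 20 kb, 10.7% (9.8 to 11.7%) had reads in the 10 kb past the end and 9.25% (8.41 to 10.1%) in the last 10 kb before it. The intervals overlap in each pair, which does not show that the shares are alike, and the pairs are split by RNA level below.

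Along the 10 kb open regions were somewhat more frequent in the nearer bins over all regions, but not in every class of RNA level. In bins of 500 bp, the share of regions with reads was 3.47% (3.04 to 3.94%) in the first bin, reached 4.04% (3.58 to 4.54%) at 2.5 to 3 kb, was 2.99% (2.59 to 3.43%) at 9 to 9.5 kb and was 3.12% (2.72 to 3.57%) in the last. The first bin held 5124 reads, the bin at 2 to 2.5 kb held 6772, that at 8 to 8.5 kb held 4664 and the last held 5305. Reads lay at 0 to 5 kb in 520 regions and at 5 to 10 kb in 493. These counts were 67 and 42 for genes of 10 FPK and above and 142 and 131 under 0.1 FPK. They were 145 and 153 at 0.1 to 1 FPK and 166 and 167 at 1 to 10 FPK. From 53 to 76 summits of islands were counted per kb, 345 at 0 to 5 kb and 331 at 5 to 10 kb. Base composition was flat, with 44.3 to 44.9% GC in every bin, whereas the share of soft-masked repeats went from 24.0% in the first bin to 35.6% at its highest.

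Within 500 bp of the gene end, long genes showed fewer reads than on either side. For genes of at least 20 kb, the last 500 bp of the gene held 1896 reads and the first 500 bp past it held 1895. The neighbouring bins held 3369 on the gene side and 2966 on the far side. The number of open regions differed less, with 107 and 110 regions in the central bins against 112 and 123 in the neighbouring ones, so that mainly the reads per open region were fewer.

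**Figure D1:**
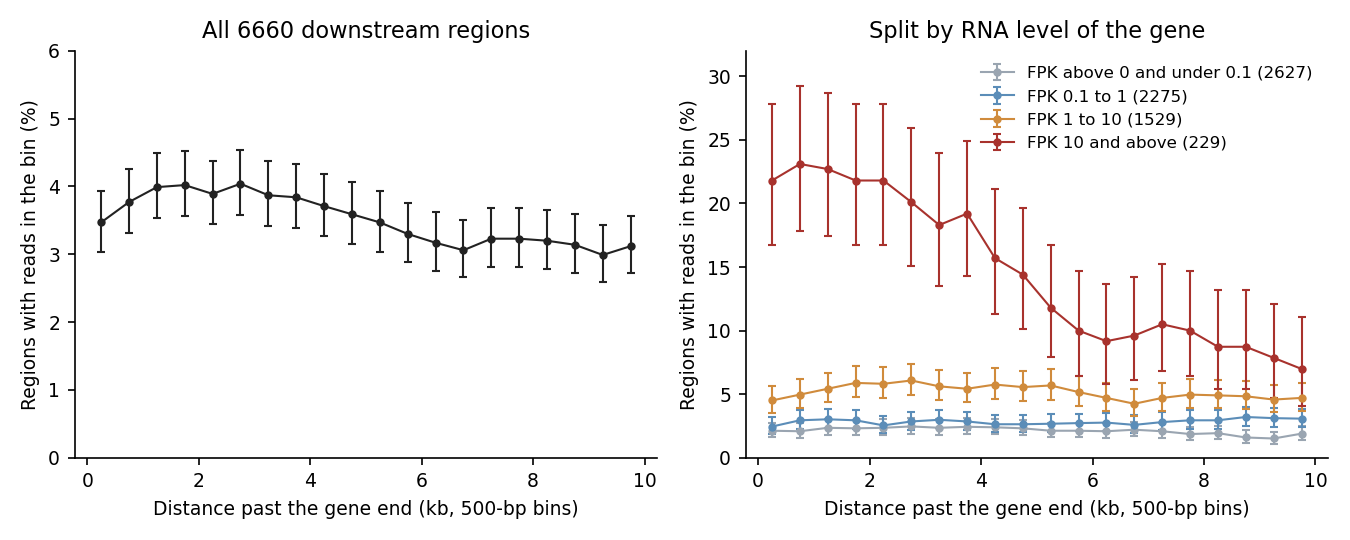
Share of downstream regions with at least 1 read in each 500-bp bin (y axis, %) against distance past the gene end (x axis, kb), for all 6660 regions (left) and by RNA level of the gene (right, number of regions in brackets); bars are exact 95% intervals. The left curve stays between 2.99 and 4.04%, and on the right the 229 regions of genes with at least 10 FPK start at 21.8% and end at 6.99%.

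Most islands lay wholly behind the gene. Of 859 pairs of a region and an island that touched it, 489 (56.9%) had the island inside the region, 190 (22.1%) had it crossing the gene end and 179 (20.8%) the outer edge. One island spanned both. A single island touched 713 regions, 67 regions had 2 and 4 had 3. The 661 islands with their summit inside a region had a median of 129 reads and a median width of 2430 bp. They resembled the 8773 islands in gene bodies (132 reads, 2590 bp) and were smaller than the 9209 at gene starts (187 reads, 2810 bp). In sequence the downstream summits were of the distal kind, with a median GC content of 50.0% and an observed to expected CpG ratio of 0.228, against 63.7% and 0.796 at gene starts. Summits in gene bodies had 48.7% and 0.223. Only 32 of the 661 summits (4.84%) lay within 1 kb of a gene start in the GENCODE M21 annotation, which lists more genes than the RNA table.

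How often the flank was open differed with the RNA level of the gene in front of it. Genes were split by their mean over the 4 RNA libraries into fixed classes. Reads were found behind 8.22% (7.20 to 9.34%) of 2627 genes under 0.1 FPK, 10.4% (9.19 to 11.7%) of 2275 genes at 0.1 to 1, 16.0% (14.2 to 18%) of 1529 genes at 1 to 10, and 35.4% (29.2 to 41.9%) of 229 genes at 10 FPK and above. Genes with an open flank had a median of 0.617 FPK and those without one 0.205 FPK. Across all 6660 genes the rank correlation of reads and RNA level was 0.136, a weak relation. The reads come from a single read table, and the RNA from other MEFs that had been treated with MG-132 and sorted.

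Gene size and neighbours moved with the RNA level, and a lower limit was set on each in turn. The median gene length went from 56907 bp in the lowest class to 7033 bp in the highest, and the median distance to the nearest gene start from 29126 to 6239 bp. Among genes of at least 20 kb the shares were 8.00, 10.5, 16.5 and 51.5%, the last of 33 genes (33.5 to 69.2%). With no gene start within 10 kb of the region they were 7.80, 9.79, 16.1 and 50.0%, the last of 68 genes (37.6 to 62.4%). Length and distance still differed between classes under these limits, with median gene lengths of 97392 and 29810 bp in the lowest and highest class among genes of at least 20 kb, and median distances to a start of 42953 and 15138 bp with no start within 10 kb. The order of the classes was the same under each limit, and the highest class stood above the others with intervals that did not overlap.

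The relation with RNA level weakened with distance. At 10 to 20 kb past the end, 15.1% (10.2 to 21.2%) of 179 genes in the highest class had reads, against 32.4% (25.6 to 39.8%) of the same genes at 0 to 10 kb. In the lowest class the corresponding shares were 8.09% and 7.54% of 2163 genes. For genes of at least 20 kb, the last 10 kb of the gene had reads in 51.5% of the 33 genes of the highest class, the same share as behind them. At 1 to 10 FPK the last 10 kb had reads in 10.9% (8.76 to 13.4%) of 732 genes and the flank in 16.5% (13.9 to 19.4%), intervals that do not overlap.

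**Figure D2:**
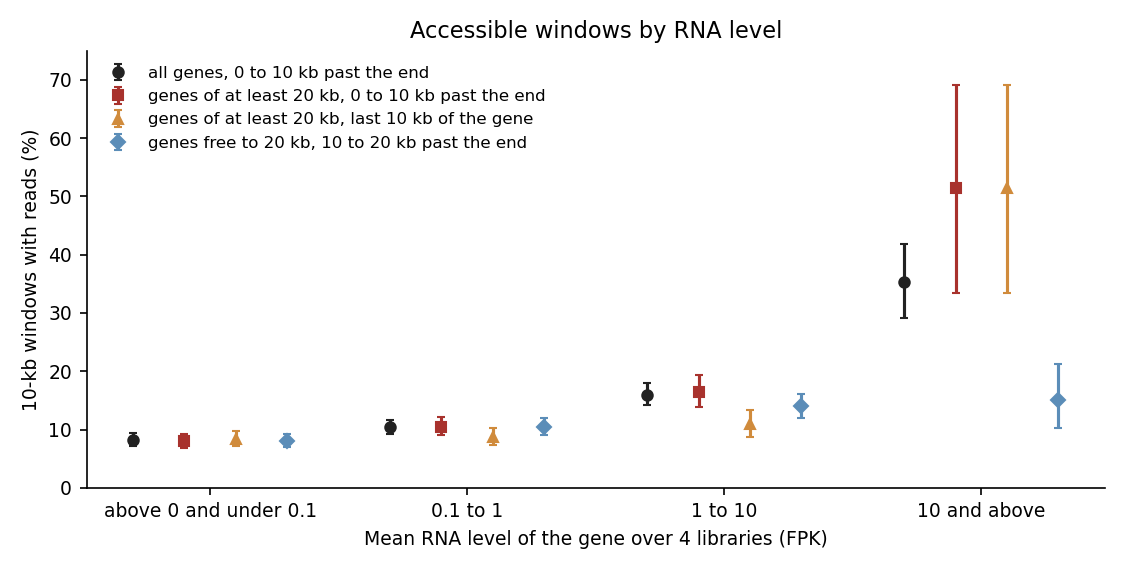
Share of 10-kb windows with reads (y axis, %) by mean RNA level of the gene (x axis, FPK), for the flank of all genes, the flank and the last 10 kb of genes of at least 20 kb, and the window 10 to 20 kb past the end; bars are exact 95% intervals. Behind genes of at least 10 FPK the share was 35.4% in the first 10 kb and 15.1% at 10 to 20 kb.

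Highly expressed genes also differed in where the open chromatin lay. In the class of at least 10 FPK the mean was 39.5 reads per region at 0 to 5 kb and 21 at 5 to 10 kb, whereas in the class under 0.1 FPK it was 5.66 and 4.71. An island that ran from the gene across its end into the flank was present in 40 of the 81 open regions of the highest class (49.4%, 38.1 to 60.7%), and in 48 of 216 (22.2%, 16.9 to 28.4%) of the lowest. Over all regions of these classes the median gene length was 7033 and 56907 bp. No limit on gene length was set here, and its part in this difference was not tested. In the 41 open regions of the highest class without such an island, the mean was 81.7 reads at 0 to 5 kb and 80.4 at 5 to 10 kb. Leaving out such regions takes reads from the nearer 5 kb by construction, and over all classes the remaining 591 open regions held 60.5 and 80.8 reads on average.

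Flanks were open more often behind genes whose start was open. Where the gene start had reads, the flank had them in 13.4% (12.4 to 14.5%) of 4163 genes, and where it had none, in 8.81% (7.73 to 9.99%) of 2497. These genes were not split by RNA level, and its part in this difference was not tested. The orientation of the next gene made little difference, with 11.3% (10.3 to 12.5%) of 3129 flanks open before a convergent gene and 12% (11 to 13.1%) of 3520 before a gene on the same strand. The flanks most remote from other genes were open least often. When the next gene lay over 200 kb away the share was 6.82% (5.46 to 8.40%) of 1202, against 14.3% (12.4 to 16.4%) of 1264 when it lay 10 to 20 kb away, and the median RNA level of these genes was 0.12 and 0.35 FPK.

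The X chromosome had the lowest share of the chromosomes with more than 6 regions. Shares on chromosomes 1 to 19 ranged from 9.57% on chromosome 14 to 17.6% (13.3 to 22.6%) on chromosome 15. On the X chromosome only 6 of 322 regions had reads, or 1.86% (0.687 to 4.01%). The regions on the X chromosome thus lay below those of every autosome, with an interval that did not reach any of theirs.

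The motifs under the downstream summits were those of distal elements. AP-1 matches were found in 42.4% (38.6 to 46.2%) of the 661 summits, close to gene bodies at 43.9% and below other intergenic islands at 50.5%. At gene starts the share was 7.32%, and over all islands it was 32.5%. In 300-bp windows placed 5 kb past the end of the 5876 regions without an island, AP-1 matches were found in 8.54% (7.84 to 9.29%). Matches to RUNX (30.6%) and TEAD (28.9%), factors that act with AP-1 at fibroblast enhancers, likewise exceeded those windows, which had 22.0 and 16.2%. The windows without islands had a lower GC content of 44.3%, and its part in these differences was not tested.

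Promoter motifs were less frequent in downstream summits than at gene starts. The SP/KLF box was found in 13.5% of downstream summits and 66.4% of those at gene starts (31.3% of all islands), the ETS motif in 1.82% and 14.1% (6.20% of all), and the E-box, the letters that MYC and MAX bind, in 4.69% and 10.7% (6.78% of all). Since the rule excludes gene starts within 2 kb, a difference from gene starts was built into the choice of regions. Gene body summits had 14.6, 1.99 and 5.07%, close to the downstream shares. The windows without islands had 3.85, 0.528 and 3.2%, so SP/KLF and ETS matches were more frequent downstream than there. For the E-box the intervals overlap (3.21 to 6.59% downstream and 2.76 to 3.68% in those windows). The part of the lower GC content of those windows was not tested. The NF-Y box was as frequent downstream (35.2%) as in all islands (36.7%) and in windows without islands (38.3%). RUNX and TEAD were found in 23.3 and 25.7% of all islands.

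CTCF matches varied with the distance to a gene end. They were found in 33 of the 661 downstream summits (4.99%, 3.46 to 6.94%), against 1.52% (1.27 to 1.79%) in gene bodies, 1.51% (1.24 to 1.82%) in other intergenic islands, 1.43% in all islands and 0.272% of the windows without islands. The same rise was seen in other islands that lay close to a gene end, with 3.76% (2.91 to 4.78%) of 1700 gene body islands and 4.33% (2.80 to 6.38%) of 554 other intergenic islands within 10 kb of one. More than 50 kb from any gene end the shares were 0.429% and 0.842%. Within 2 kb of the end, 14 of 142 downstream summits (9.86%, 5.50 to 16.0%) had a match, against 4.53% (2.61 to 7.26%) of gene body summits at that distance, and these intervals overlap. Islands at gene starts had 0.709% within 2 kb of a gene end and 1.03% within 10 kb. AP-1 went the other way, from 53.3% in intergenic islands over 50 kb from a gene end to 42.6% within 10 kb. The median GC content of the summits also differed with distance. Within 10 kb and over 50 kb it was 52.0 and 46.7% in gene bodies and 49.7 and 44.7% in other intergenic islands. At gene starts it was 63.0 and 64.7%. The part of GC content in the CTCF and AP-1 shares was not tested.

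**Figure D3:**
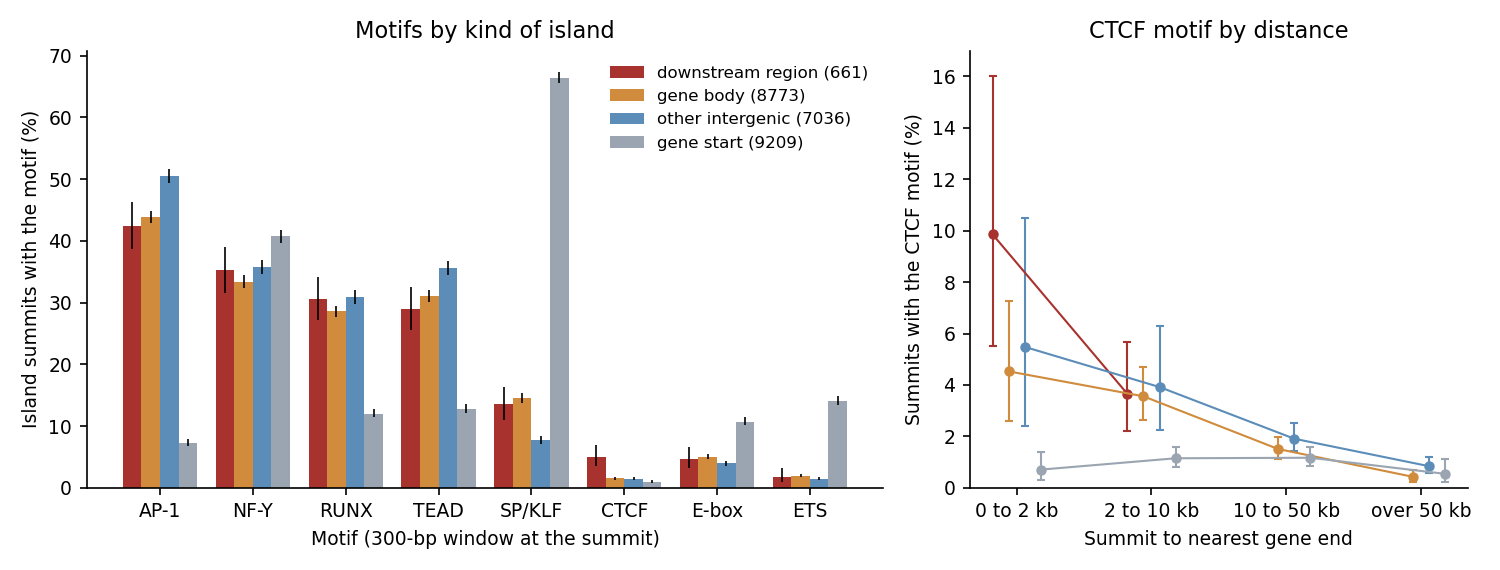
Left, share of island summits with each motif (y axis, %) in downstream regions, gene bodies, other intergenic sequence and at gene starts (numbers of islands in brackets); right, share with the CTCF motif against the distance from the summit to the nearest gene end; bars are exact 95% intervals. Downstream summits carried AP-1 in 42.4% and SP/KLF in 13.5%, and CTCF went from 9.86% within 2 kb of the gene end to 3.66% at 2 to 10 kb.

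Genes behind the CTCF matches covered the whole range of RNA levels. Scarb1 had 194 reads at its summit 8528 bp past the end and a mean of 0.454 FPK. Adm, which encodes the vasodilator peptide adrenomedullin, had 88 reads at 655 bp and 37.0 FPK, and Ptma, which encodes prothymosin alpha, had 56 reads at 1743 bp and 165 FPK. Ckb, the brain-type creatine kinase, had 66 reads at 761 bp and 25.8 FPK. Lag3, a lymphocyte receptor, had 64 reads at 573 bp and 0.0242 FPK. These genes were picked from the matches after their values were seen.

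The 10 regions with the most reads followed genes of very different function. Vmp1 led with 773 reads in all 20 bins, and its region begins beside Mir21a, the microRNA gene that GENCODE places at the end of Vmp1. Plekho2 had 689 reads, 195 of them at 1.5 to 2 kb. D7Ertd443e had 647 reads, 312 of them at 4 to 4.5 kb, behind a gene with 0.000167 to 0.00169 FPK in the 4 libraries. An open flank was thus also found behind a gene with almost no RNA.

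Adamtsl4, which encodes an ADAMTS-like matrix protein, had 619 reads and overlapped the flank of Mcl1, and Tubd1 had 581 reads in a region that overlaps that of Vmp1. Socs3, the feedback inhibitor of cytokine signalling, had 579 reads with 181 at 2 to 2.5 kb. Scarb1 had 567, Dusp10 545 with 232 at 1 to 1.5 kb, Gorab 502, and Fbn1, which encodes the microfibril protein fibrillin-1, had 501 with 110 at 6 to 6.5 kb. Part of the Scarb1 region is covered by the lincRNA Gm32585 in GENCODE.

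Directly at the gene end the order was another. Among the regions with the most reads in the first 500 bp, Ctdsp1, a phosphatase of the polymerase tail, had 158 of its 200 reads there, Pola2, a subunit of DNA polymerase alpha, 119 of 130, Adamtsl4 117 of 619, and Tmem107 113 of 219. The Tmem107 region contains the small nucleolar RNA gene Snord118 in GENCODE, which is not in the RNA table.

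Among the gene lists, matrix and immediate early genes had reads most often, beside 11.7% of all regions and 35.4% of those in the highest RNA class. Of 12 matrix genes, 8 had a qualifying region and 7 of these had reads. Col1a1 had 490 reads with 242 at 5 to 5.5 kb, Col3a1 291 in 16 bins, and Col1a2 124, all of which encode fibrillar collagens. Sparc had 159 reads, Ccn1 158, and Lox, the collagen crosslinking enzyme, 151. Postn had none. The members named here lie between 6.60 FPK for Postn and 333 FPK for Ccn1, in the classes of RNA level in which open flanks were most frequent.

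Among 7 immediate early genes with a qualifying region, 5 had reads. Fos had 211 reads with 109 at 8.5 to 9 kb, Fosl2 had 135, Klf6 73, Jun 54 and Egr1 48, whereas Atf3 and Klf4 had none. Thus several genes of the AP-1 family itself had open chromatin behind them. Fosl2, Egr1, Jun and Klf6 lay between 10.8 and 31.0 FPK, in the RNA class in which open flanks were most frequent. Klf4, without reads, lay there too at 10.7 FPK, whereas Fos had 2.07 FPK and Atf3 0.0629 FPK. Of the cytoskeleton list, Actg1 (173 reads) and Vim (164) had reads and Tpm1 had none. Of 5 inflammatory genes, Lif had 207 reads and Ccl20 158, and Il6, Nfkbia and Cxcl12 had none.

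The other lists had few qualifying regions, and their counts are not set apart from the 11.7% of all regions. In the MYC network, 1 of 6 regions (16.7%) had reads, that of Myc, whereas its partner Max, its paralogs Mycn and Mycl, the antagonist Mxd1 and Fubp3 had none. Both stress genes, the chaperone Hspa8 at 119 FPK and Dnajb1 at 8.60 FPK, had none, so a high RNA level was not always accompanied by an open flank. Of the genes of other cell types only Afp had a qualifying region, and it had no reads.

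Behind Myc, 2 separate open stretches were found. The region chr15:61990375-62000374 on the plus strand held 291 reads, 2 of them in the first 500 bp. The first island ran from 376 to 5169 bp past the end with 129 reads and no bin above 27 reads. The second was narrower and steeper, from 7873 to 9340 bp with 162 reads, and 114 of these lay in 1 bin at 8.5 to 9 kb. No read lay between 5.5 and 7.5 kb. The summit of the second island is the Myc sequence printed above, which carries 2 AP-1 matches and 1 NF-Y match and no E-box. Because the read table does not separate libraries, whether either island differed between genotypes cannot be told from these reads. The authors, who had the separate libraries, report a hypersensitive site at about the distance of the second island. They found its signal significantly higher in KOKD than in WT MEFs.

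**Figure D4:**
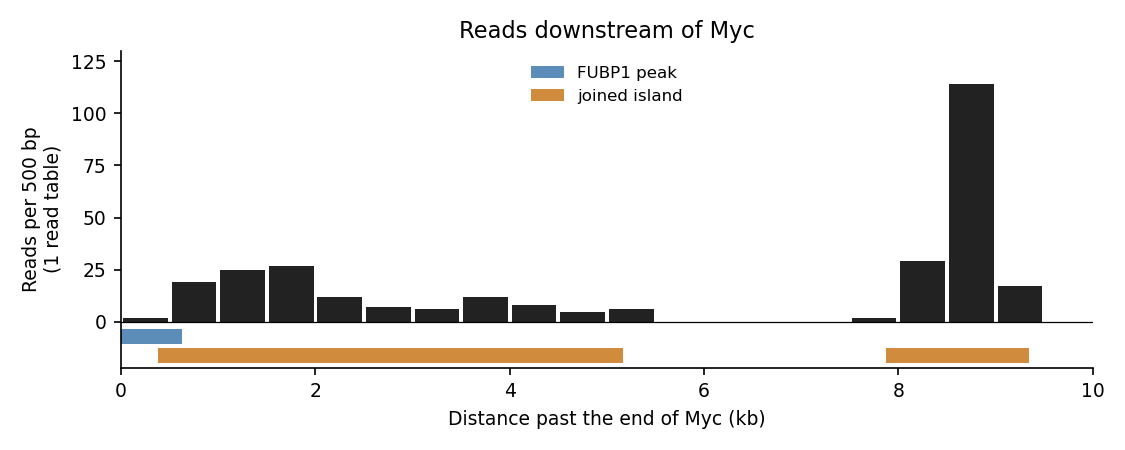
Reads per 500-bp bin (y axis) against distance past the end of Myc (x axis, kb), with the part of the FUBP1 peak in the region (blue) and the 2 joined islands (orange) drawn below the axis. The highest bin, 114 reads at 8.5 to 9 kb, lies far from the FUBP1 peak, which ends 626 bp past the gene.

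FUBP1 is a single-strand DNA-binding protein known as a regulator of Myc transcription. The authors report that their ChIP antibody also reacts to some degree with FUBP2, and the part of FUBP2 in these peaks was not tested. Of 278 downstream regions on chromosome 15, 16 were overlapped by a FUBP1 peak, and at 12 of these the peak also touched the gene, so that it ran over the gene end. Only at Atad2, Zfp41, Kcnj4 and Tuba1b did no peak touch the gene. At Tuba1b the peak began 24 bp past the gene end. Peaks were called in windows of 200 bp, so this gap is not resolved. The longest reach into the flank from the gene was at Has2, where the peak extended 6626 bp. At Pabpc1, which encodes the poly(A)-binding protein, a first peak reached 1660 bp and a second lay at 2660 to 8460 bp.

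FUBP1 peaks over flanks were more frequent at genes with a high RNA level. They were found over 2 of 109, 3 of 91, 5 of 66 and 6 of 12 regions in the 4 classes from lowest to highest RNA level, and the last share is 50.0% (21.1 to 78.9%). The median RNA level was 3.34 FPK with a peak and 0.261 FPK without. Reads were found in 5 of the 16 regions with a peak (31.2%, 11 to 58.7%) and in 44 of the 262 without (16.8%, 12.5 to 21.9%), and these intervals overlap.

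The 5 regions with both were those of Myc, Rpl3, Has2, Tuba1b and Ext1. Under the peak itself lay all 155 reads of Has2, 166 of the 221 reads of Rpl3, a ribosomal protein gene, 55 of the 122 of Tuba1b, 55 of the 104 of Ext1 and 5 of the 291 of Myc. Hence the peak covered the island at Has2 and lay apart from the steep island at Myc. Pabpc1 (54.5 FPK), Hnrnpa1 (62.1 FPK) and Slc38a2 (12.9 FPK) had FUBP1 peaks over the flank and no reads. Of all 166 peaks, 43 (25.9%) held reads. With 1 ChIP-seq sample and positions only, peak heights could not be compared.

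**Figure D5:**
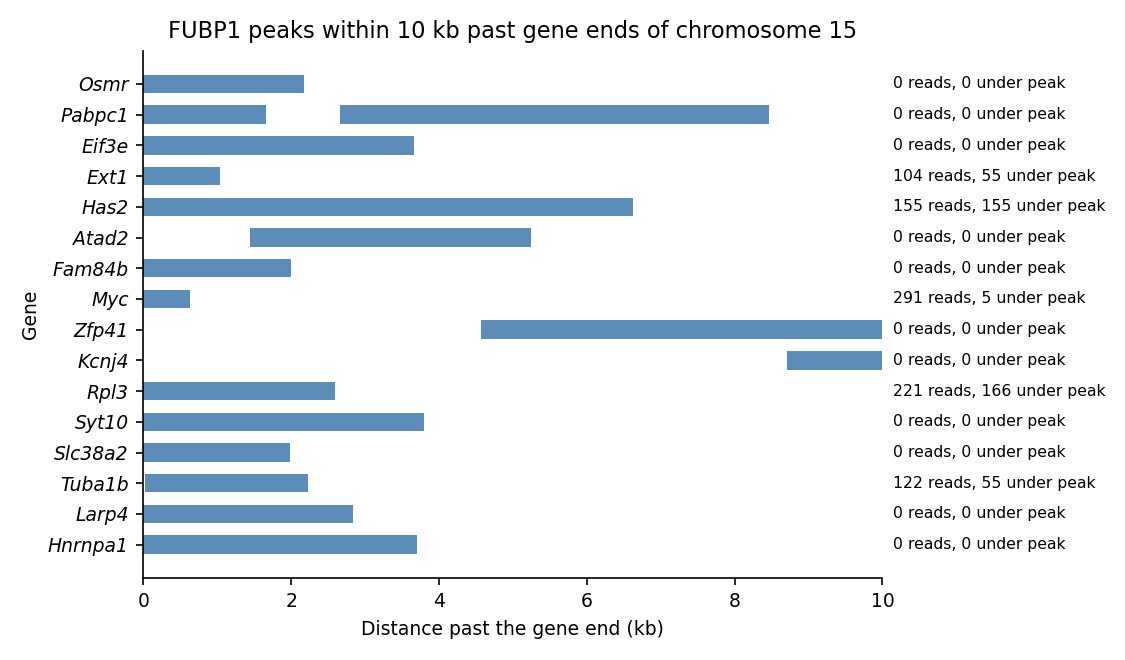
Extent of FUBP1 peaks (bars) in the 10 kb past the gene end (x axis, kb) for the 16 genes of chromosome 15 whose downstream region a peak overlapped (y axis), with the reads in the region and those under the peak at the right. Bars start at the gene end at most genes, and reads are listed for only 5 of the 16.

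Between low-MYC and high-MYC cells the genes with an open flank rose with the rest of the genes. The RNA values are set against the number of cells through spike-in RNA, so that a general rise is visible, and fewer cells of a type and less RNA per cell cannot be told apart in such bulk samples. Of the 779 genes with reads in the flank, 563 passed the minimum mean of 0.1 FPK, of which 336 (59.7%) had a fold change of 2 or more towards high-MYC cells at an adjusted p under 0.01 (limma, Benjamini-Hochberg). Without reads, 1759 of 3470 genes (50.7%) were called. Over all 11870 genes tested 55.1% were called higher and 0 lower, so the share was near the background. The median log2 fold change was 1.06 with reads, 1.00 without and 1.03 over all genes.

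This difference depended on the pseudocount, which lowers the fold change of weakly expressed genes. With a pseudocount of 0.01 the called shares were 84.0% with reads, 86.8% without and 84.9% of all genes, and with a pseudocount of 1 they were 17.9%, 8.53% and 12.2%. When all libraries were brought to an equal median, so that only changes relative to other genes remain, 9 of the 563 genes (1.6%) were called higher against 0.573% of all genes tested and 24 of the 3470 genes without reads (0.692%).

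Myc read 9.81 and 9.86 FPK in low-MYC and 20.3 and 20.5 FPK in high-MYC cells, groups that did not overlap, with a log2 fold change of 1.04 (SE 0.0388, limma adjusted p = 1.04e-05). Col1a1 read 43.7 and 43.3 against 131 and 129 FPK, a log2 fold change of 1.57 (adjusted p = 1.04e-05, limma). Socs3 went from 1.74 in both low-MYC libraries to 5.81 and 5.93 FPK, a log2 fold change of 1.70 (adjusted p = 1.04e-05, limma). These 3 genes lay at and above the median change of all genes. Vmp1, with the most reads of all flanks, read 0.525 and 0.529 against 1.09 and 1.21 FPK, a log2 fold change of 1.00 (limma adjusted p = 2.72e-05). Has2 read 4.24 and 4.41 against 11.2 and 12.5 FPK, a log2 fold change of 1.43 (limma adjusted p = 1.12e-05).

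Directions are those against cell number, since after the equal-median scaling the log2 fold change was -0.13 for Myc and -0.04 for Vmp1, whereas it was 0.39 for Col1a1, 0.56 for Socs3 and 0.27 for Has2.

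The 9 genes that stayed higher after rescaling were Ccl9, Ccl20, Crabp2, Ly6a, Serpina3n, Aqp5, Serpina3i, Lars2 and Gas1, named after their values were seen. Ccl20, a chemokine gene with 158 reads in its flank, read 0.0725 and 0.0709 in low-MYC and 1.06 and 0.984 FPK in high-MYC cells, with a log2 fold change of 2.71 as deposited and 1.95 after rescaling (limma adjusted p = 1.04e-05 and 0.0022). Ccl9, also a chemokine gene and one that macrophages express, read 0.0342 and 0.0512 against 0.777 and 0.807 FPK and had 171 reads. The summed level of 10 macrophage markers was 0.623 and 0.865 in low-MYC and 26.8 and 28.2 FPK in high-MYC cells, and 2 of the 10, Adgre1 and C1qa, were at 0 in a low-MYC library. The part of macrophage RNA in these 9 calls was not tested. Paralogs such as Serpina3n and Serpina3i can share reads, so their values are uncertain.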

How the data were processed

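MEFs were profiled by TACh-seq, FUBP1 ChIP-seq and RNA-seq. For TACh-seq and ChIP-seq the authors trimmed reads, aligned them to mm10 with Bowtie2 and called islands or peaks with SICER (versions not given in the sources used here). The deposited TACh-seq table gives read positions and a mapping score per read, without library; the deposited FUBP1 list gives positions only. The deposited RNA signal values are FPK from TopHat and Partek that the authors divided by a spike-in score, so the depth per library is unknown; gene ends were corrected by 1 base. No column of values was left unassigned.

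Reads were counted by midpoint in 500-bp bins from the gene end, joined into islands over at most 800 bp, and the summit was the 300-bp window with the most reads. Islands were assigned first to downstream regions, then to gene starts (within 1 kb, GENCODE M21), gene bodies and other sequence. No test was run over regions, which share 1 read table; intervals are exact Clopper-Pearson intervals at 95%. log2(FPK + 0.1) was compared with limma 3.58.1 (trend) in R 4.3.3, keeping genes whose mean reached 0.1 and calling those at an adjusted p under 0.01 and at least 2-fold, after the counting and the fit had been tested on simulated data; since replicates are technical, a p-value covers the spread between these libraries only. Counts were made in Python 3.11.15 with pysam 0.24.0, scipy 1.17.1, numpy 2.4.6, pandas 2.3.3 and matplotlib 3.10.9. Sequences are from GRCm38.p6.

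Genes named are the 10 regions with the most reads, the 5 with the most in the first 500 bp, those with a FUBP1 peak, Myc, and members of lists of matrix, cytoskeleton, immediate early, MYC network, stress, inflammatory and other cell type genes. Members and lists were chosen with earlier results of these data known; the splits by crossing islands and by distance to the nearest gene end, the comparison of windows by RNA level and the order of neighbours were added after seeing the data. Alternatives covered duplicate reads, mapping score, neighbouring starts, annotation, bins, RNA class, peak overlap, pseudocount, filter, scaling, replicate block, replicates and summit window. The comparison of WT and KOKD MEFs was left out because no library is named. Some items that the rule names are not reported here.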

Additional observations from a re-analysis of the deposited data

How the results depend on the processing

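The share of regions with reads (11.7%) was 10.7% without gene starts within 10 kb and moved less under duplicate removal, a mapping score of at least 30, the GENCODE annotation, read 5′ ends or 20 reads as the minimum. The ratio of reads in the first 500-bp bin to the mean of the last 4 (1.02) was 0.691 without gene starts within 10 kb, 0.921 in regions free by GENCODE, 1.12 in 1000-bp bins and 1.11 for the share of regions, so the direction of this ratio depends on the setting. The difference in share between the highest and the lowest RNA class (27.1 percentage points) was 42.2 without starts within 10 kb and 43.5 for genes of at least 20 kb, an alternative chosen after seeing the data. FUBP1 peaks lay over 10 regions with 50% or more of the peak inside and over 4 when it must not touch the gene, against 16. AP-1 matches fell to 33.0% in 200-bp windows, which hold fewer letters.

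Of genes with an open flank, 336 were called higher, 101 with a pseudocount of 1 (17.9%, against 12.2% of all genes tested) and 9 after rescaling to an equal median. The log2 fold changes then turned to -0.13 for Myc, -0.04 for Vmp1 and -0.05 for Plekho2, since rescaling moves the median of all genes from 1.03 to -0.0040. Leaving out each library gave 295 to 371 calls. With the replicate block 336 were called. Same-numbered libraries deviated together with a correlation of 0.081, so the numbers are not taken to pair them. What limits these results is 1 read table of unknown libraries, restricted to called islands, which hides weak openness and all differences between genotypes.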
